A study of Mus musculus with 21 samples.

Results

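The comparison described here sets Glast+ cells of the mouse retina at postnatal day 28 (P28) against Glast+ cells at postnatal day 21 (P21), over all genes measured. Its members are the 4 arrays titled with those ages, 2 at P28 and 2 at P21, of 21 arrays in the series. Cells from retinas of C57BL/6 mice were captured on magnetic beads through an antibody to the surface protein Glast (Slc1a3), and their total RNA was amplified, biotin-labelled and hybridized in a single channel to arrays of long oligonucleotide probes. The other arrays hold Glast+ cells at P7 (2 arrays) and P14 (3 arrays). They also hold cells captured through Notch1 at P0, P3, P7 and P14 (3 arrays each), all from the same strain. All 8 groups were fitted together, and every group but P28 lent its spread to the test. The Notch1+ arrays were scanned on other days than the Glast+ arrays. No genotype, treatment or sex distinguishes the groups in the labels, which leaves age as the only stated difference between P28 and P21. The series compares retinal progenitors with Müller glia as they mature, and the Glast+ cells at the later ages are described by the submitters as adult Müller glia.

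Müller glia are the main glial cells of the retina. They span its whole thickness, take up glutamate released by neurons through the transporter Slc1a3 and convert it to glutamine with the enzyme Glul, recycle retinoids for photoreceptors with the help of Rlbp1, and buffer potassium and water. After injury they switch on a set of stress and gliosis genes, and several transcription factors of retinal progenitors, Sox9 and Hes1 among them, stay active in them. Capture through a surface protein enriches a cell type but does not purify it.

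The 2 P28 arrays carry the same sample code in their titles, while every other array has a code of its own (20 codes for 21 arrays). They were treated as 1 sample on 2 arrays and averaged before testing, so no spread between P28 samples enters any result below. Across 12612 genes the log2 values of the P28 arrays differed with an SD of 0.212 and correlated at r = 0.996. The P21 arrays, which have separate codes, differed by an SD of 0.681 and correlated at r = 0.960, the widest difference among the replicate pairs of the Glast+ sort (0.379 at P7 and 0.390 to 0.607 at P14). Genes are not independent replicates, so these correlations describe the arrays and carry no test. In 1498 genes the P21 arrays lay over 2-fold apart, against 10 genes for the P28 arrays. Of the 582 genes called below, 111 had P21 arrays over 2-fold apart. The SEs below rest on spread pooled over groups, so they do not give a gene's P21 spread alone. The scanner software found 64.4% and 68.8% of the 34312 transcript probes on the P21 arrays and 67.4% and 71.6% on the P28 arrays. All 9 Glast+ arrays were scanned on 1 day in the order of age, so scan order and age cannot be told apart. Values below are log2 normalized intensities, given in the order array 1, array 2 for each age.

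All 43 measured markers of Müller glia were found on all 4 arrays, but so were 35 of 36 rod genes and 32 of 33 genes of microglia and macrophages, so detection does not set the cell types apart. Slc1a3, the protein used for the capture, read 14.60 and 15.78 at P21 and 15.87 and 15.87 at P28. Glul, the glutamine synthetase, read 14.18 and 15.66 at P21 and 15.31 and 15.39 at P28. Rlbp1, the retinaldehyde-binding protein, read 14.203 and 15.62 at P21 and 15.31 and 15.27 at P28. For these 3 genes the second P21 array lay close to the P28 pair and the first lay lower, and the top of the scale is 16.0, where differences are compressed. The captured material also held RNA of other retinal cells at both ages. Gnat1, the alpha subunit of rod transducin, read 15.95 and 15.89 at P21 and 15.97 and 15.97 at P28. In such bulk samples, fewer cells of a type and less RNA per cell cannot be told apart.

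Of 12612 genes, 582 (4.61%) passed an adjusted p of 0.05 (Benjamini-Hochberg), 238 (1.89%) higher and 344 (2.73%) lower at P28. Members of the bipolar cell, cone, synaptic and oxidative phosphorylation lists were among the falls, and members of the immediate-early, gliosis and sterol lists were among the rises. The size of the called differences ran from 0.72 to 4.43 on the log2 scale with a median of 1.59, and 536 of them were at least 2-fold. In all 582 the P28 arrays lay on one side of both P21 arrays, which was also true of 64.8% of all genes. The median difference over all genes was 0.02. With P28 taken as 2 samples, as the titles number them, 2238 genes (17.7%) were called, 993 higher (7.87%) and 1245 lower (9.87%), the 582 included. With the Glast+ arrays fitted alone 0 genes were called by limma (2515 at an unadjusted p under 0.05, against 2732 in the reported fit), and under median scaling 0 genes were called (1118 at an unadjusted p under 0.05, smallest adjusted p = 0.054). With the Glast+ arrays alone and P28 as 2 samples 1975 genes were called. Under median scaling all 582 kept their direction. The other settings named here use the same group means as the reported fit, so directions could not change in them.

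**Figure D1:**
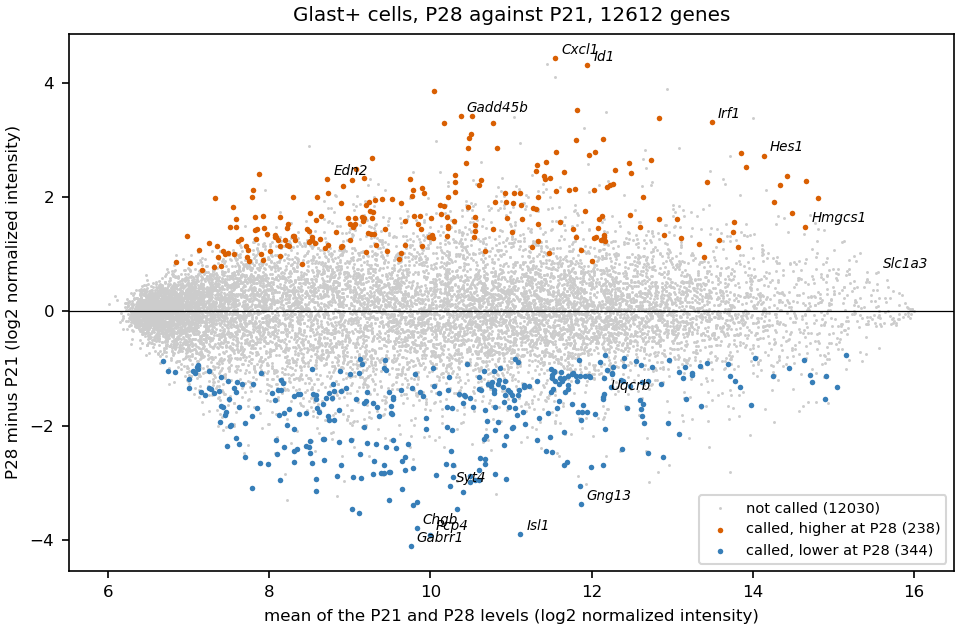
Difference between P28 and P21 for each of 12612 genes (y axis, log2 normalized intensity) against the mean of the P21 and P28 levels (x axis, log2 normalized intensity), with the 238 genes called higher in orange, the 344 called lower in blue and the rest in grey. Slc1a3 sits near the zero line at the bright end, Cxcl1 and Id1 at the upper edge, and Gabrr1, Pcp4, Isl1 and Chgb at the lower edge.

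In the reported fit the interval from P21 to P28 held fewer calls than the earlier intervals of the same sort, and its order with the week before turned in other settings. Between P14 and P21, 1319 genes (10.5%) passed, 692 (5.49%) higher and 627 (4.97%) lower at P21. Between P7 and P14, 3202 genes (25.4%) passed, of which 1675 (13.3%) were higher and 1527 (12.1%) lower at P14. The numbers of samples differ between these comparisons, with 3 samples at P14, 2 at P7 and P21 and 1 at P28, and the counts were not tested against each other. With P28 taken as 2 samples 2238 genes were called between P21 and P28 against 1554 between P14 and P21, and with the Glast+ arrays alone and P28 as 2 samples 1975 against 1261. With array weights the counts were 864 and 844.

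Cxcl1, Id1, Irf1 and Tnfsf9 were among the 12 largest called rises. Cxcl1, a chemokine that attracts neutrophils, read 11.25 and 7.42 at P21 and 13.79 and 13.73 at P28. It rose by 4.43 (SE 1.03, adjusted p = 0.0268), with a P21 spread wider than that of any other gene among the 12 largest rises. Id1, an inhibitor of basic helix-loop-helix factors and a target of BMP signalling, read 9.37 and 10.22 at P21 and 14.104 and 14.09 at P28, a rise of 4.30 (SE 0.76, adjusted p = 0.00862). Irf1, a transcription factor of the interferon response, read 12.20 and 11.46 at P21 and 15.15 and 15.14 at P28 and rose by 3.31 (SE 0.55, adjusted p = 0.00591). Its other probes rose less, down to 1.46. Tnfsf9, a ligand of the tumour necrosis factor family, read 9.06 and 7.97 at P21 and 11.74 and 11.89 at P28 and rose by 3.3 (SE 0.50, adjusted p = 0.00363). For all 4 genes the P28 arrays were nearly equal and both P21 arrays were lower.

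Tulp4, a tubby-like protein, rose by 3.85 (adjusted p = 0.00573), Ivd, an enzyme of leucine breakdown, by 3.42 (adjusted p = 0.0211) and St6gal1, a sialyltransferase, by 3.3 (adjusted p = 0.0193). Ndufa2, a subunit of respiratory complex I, rose by 3.51 (adjusted p = 0.0208), against the direction of the other called genes of its list. Other probes gave far smaller or opposite values for 4 of these 12 genes. Ivd differed by 0.87 on another probe. Hsp90ab1, a chaperone, rose by 3.37 on its brightest probe (adjusted p = 0.00767) and differed by −0.27 on another. Clock, a core factor of the circadian clock, rose by 3.04 (adjusted p = 0.00158) and differed by −0.19 on another probe, and Rasa1, which switches off Ras, rose by 3.1 (adjusted p = 0.00255) against 0.39 on another. Over all 582 called genes, 188 had several probes. In 58 of these some probes lay above 0 and others below it, with over 0.5 between the highest and the lowest.

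Gabrr1, Gabrr2, Chgb and Isl1 were among the 12 largest called falls. Gabrr1, a GABA receptor subunit found on bipolar cells, read 11.37 and 12.25 at P21 and 7.83 and 7.57 at P28. It fell by 4.11 (SE 0.88, adjusted p = 0.0188), and its partner Gabrr2, which read 11.20 and 11.79 at P21 and 8.22 and 8.11 at P28, fell by 3.33 (SE 0.50, adjusted p = 0.0036). Both P28 arrays lay over 2 units under the lower P21 array for each subunit. Chgb, a protein of secretory granules, read 11.88 and 11.56 at P21 and 7.93 and 7.94 at P28 and fell by 3.79 (SE 0.61, adjusted p = 0.005). Isl1, a homeodomain factor of bipolar, amacrine and ganglion cells, read 12.82 and 13.29 at P21 and 9.11 and 9.23 at P28 and fell by 3.89 (SE 0.89, adjusted p = 0.0244). Isl1 stood at 12.71 at P14 and 12.27 at P7, so the P28 value was the lowest of the 4 ages.

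The other members of the 12 largest falls included Pcp4, a calmodulin regulator of neurons (−3.90), Asic3, an acid-sensing channel (−3.52), and Tnnt1, a troponin of slow muscle (−3.46). Cabp5, a calcium-binding protein of bipolar cells (−3.46), Prmt8, an arginine methyltransferase of neurons (−3.39), Gng13 (−3.37), St18 (−3.29) and Hspa12a (−3.16) completed them. Their adjusted p-values ran from 0.00684 for Tnnt1 to 0.0374 for St18. The calls of Ndufa2, Ivd, St6gal1, Isl1 and St18 were lost without P21 array 1, when their differences were 3.62, 3.17, 3.14, −4.12 and −3.54. Most of the 582 calls over all genes were lost in that setting. Without P21 array 2 the call of St18 was lost (−3.04), and the difference of Cxcl1 moved from 4.43 to 2.52, against 6.34 without array 1.

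**Figure D2:**
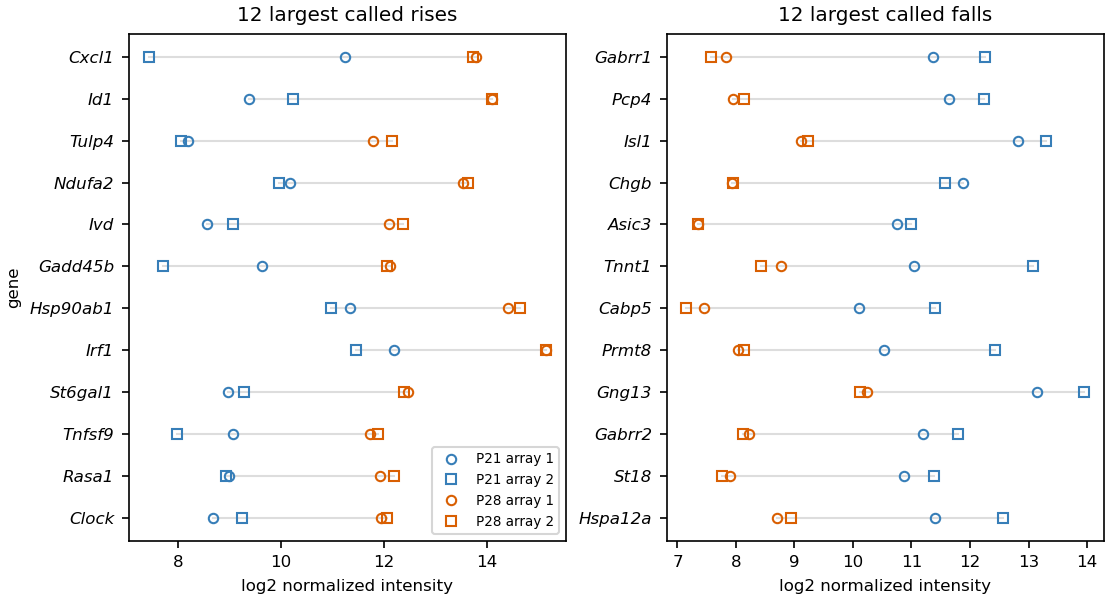
Log2 normalized intensity (x axis) of the 12 largest called rises and the 12 largest called falls (y axis), with P21 arrays in blue and P28 arrays in orange (circle, array 1; square, array 2). The P28 pair lies close together in each gene, and the P21 pair is widest for Cxcl1 (11.25 and 7.42).

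Bipolar cells, the interneurons that carry signals from photoreceptors to the inner retina, gave the most calls of any cell type list. Of 26 measured members 11 (42.3%, against 2.73% of all genes) were called lower and 0 higher, with a median difference of −2.09 against 0.02 over all genes. With cyclic loess 3 members were called and with the authors' processed values 7, all lower. Over all genes these settings called 90 and 140 lower, against 344 in the reported fit. Gng13, the gamma subunit of the G protein that couples the glutamate receptor of ON bipolar cells, read 13.14 and 13.95 at P21 and 10.24 and 10.12 at P28. It fell by 3.37 (SE 0.62, adjusted p = 0.01). Pcp2, a regulator of that G protein, read 13.01 and 13.75 at P21 and 10.41 and 10.24 at P28 and fell by 3.06 (SE 0.55, adjusted p = 0.0095). Cabp5 read 10.11 and 11.41 at P21 and 7.45 and 7.15 at P28, and Car8, a carbonic anhydrase-like protein, read 8.49 and 8.21 at P21 and 6.60 and 6.24 at P28. Car8 fell by 1.93 (SE 0.28, adjusted p = 0.00292) and was found on 1 of the P28 arrays. In each of these genes the groups were clearly apart.

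Of the 26 differences 24 were below 0, and not every member was called. Gnao1, the alpha subunit of the same G protein, read 13.15 and 14.82 at P21 and 14.05 and 14.05 at P28 and was not called (0.06, adjusted p = 0.974). Otx2, a homeodomain factor of photoreceptors and bipolar cells, read 13.89 and 12.99 at P21 and 10.51 and 10.36 at P28, a difference of −3.01 that missed the threshold (adjusted p = 0.0554). The list median was −1.56 against P21 array 1 alone and −2.26 against P21 array 2 alone, with 9 and 10 members called lower. Gnao1 was picked after its values had been seen.

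Promoters of called bipolar genes are shown because TAATCC is the letter string bound by the photoreceptor and bipolar factors Otx2 and Crx. RefSeq (GRCm38.p6) gave a promoter, from 250 bases before the annotated start to 50 after it, for 10 of the 11 called members. The string or its reverse, GGATTA, stood in 2 of these 10, Cabp5 and Isl1, and in 7.06% of the 32851 promoters of the same length that were searched. The 10 are genes, some with several promoters, while the 7.06% counts single promoters, so the shares are not like for like. The capitals mark the matches, which do not overlap.
Cabp5 promoter, chr7:13397905-13398204, plus strand: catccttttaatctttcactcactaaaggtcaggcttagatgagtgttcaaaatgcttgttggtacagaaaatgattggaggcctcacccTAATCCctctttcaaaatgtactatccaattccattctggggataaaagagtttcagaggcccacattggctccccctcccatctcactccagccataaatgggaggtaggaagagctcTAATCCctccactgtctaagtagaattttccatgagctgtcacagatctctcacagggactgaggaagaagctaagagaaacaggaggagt
Isl1 promoter, chr13:116309639-116309938, minus strand: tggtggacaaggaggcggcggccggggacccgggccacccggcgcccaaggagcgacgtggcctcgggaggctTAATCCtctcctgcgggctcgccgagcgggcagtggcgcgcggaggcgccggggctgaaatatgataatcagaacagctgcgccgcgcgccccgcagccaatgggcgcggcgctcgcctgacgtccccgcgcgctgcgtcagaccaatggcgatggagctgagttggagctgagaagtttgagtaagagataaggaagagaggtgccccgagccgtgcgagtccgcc
A match describes letters in this window and nothing about binding in these cells. This string, and the strings searched for the stress and sterol genes described further on, were chosen after the list results were known.

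Cones, the photoreceptors of daylight vision, differed in the same direction. Of 13 measured cone genes 4 (30.8%, against 2.73% of all genes) were called lower and 0 higher. All 13 differences were below 0, with a median of −2.35. Kcne2, a potassium channel subunit, read 9.05 and 10.30 at P21 and 7.27 and 7.36 at P28 and fell by 2.36 (SE 0.43, adjusted p = 0.0096). Gnb3, the beta subunit of cone transducin, read 13.07 and 14.80 at P21 and 11.51 and 11.41 at P28 and fell by 2.48 (SE 0.65, adjusted p = 0.043). Cnga3, of the cone channel, fell by 2.35 (adjusted p = 0.0392), and Pde6c, of the cone phosphodiesterase, fell by 2.83 (adjusted p = 0.0408). The second P21 array was the higher one for each of these 4 genes. Without it the list median was −1.49 and 1 member was called, and without the first P21 array the median was −2.99 and 6 members were called. With cyclic loess 0 cone genes were called and with the authors' processed values 1, with medians of −1.74 and −2.06. Lower calls over all genes were 90 and 140 in these settings, against 344 in the reported fit.

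Rod genes were called lower at about the share of all genes, and the P21 arrays stood in the opposite order for them. Of 36 measured rod genes 1 (2.78%, against 2.73% of all genes) was called lower and 0 higher. Even so, 32 differences were below 0 and 4 above it. The median was −0.94, with −1.39 against P21 array 1 and −0.57 against P21 array 2. Rpgrip1, a scaffold of the photoreceptor cilium, read 13.65 and 12.90 at P21 and 11.58 and 11.60 at P28 and fell by 1.68 (SE 0.39, adjusted p = 0.0272). Its other probes gave −1.04 to −3.82. Gngt1, the gamma subunit of rod transducin, read 10.67 and 9.07 at P21 and 6.64 and 6.51 at P28, a difference of −3.29 that was not called (adjusted p = 0.0612). Gnat1, described above and picked after its values had been seen, lay near the top of the scale and differed by 0.05 (adjusted p = 0.985). The rod count was lower without P21 array 1 than without P21 array 2, as was the count over all genes.

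Genes of synaptic transmission gave 5 calls, all lower. These were 5 of 35 measured members, against 2.73% of all genes, and 25 differences were below 0 and 10 above it, with a median of −1.08. With cyclic loess 2 members were called and with the authors' processed values 3. Lower calls over all genes were 90 and 140 in these settings, against 344 in the reported fit. Syt4, a synaptotagmin of dense-core vesicles, read 11.19 and 12.33 at P21 and 8.71 and 8.72 at P28 and fell by 3.05 (SE 0.47, adjusted p = 0.00424). Slc17a7, the vesicular glutamate transporter of photoreceptors and bipolar cells, read 12.82 and 11.15 at P21 and 9.28 and 9.16 at P28 and fell by 2.77 (SE 0.52, adjusted p = 0.0112). For Syt4 the second P21 array was the higher and for Slc17a7 the first. Cplx1, which controls vesicle fusion, fell by 2.55 (adjusted p = 0.0238). The list median was −0.48 against P21 array 1 and −1.41 against P21 array 2.

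Among inner retinal neurons of other types, 0 of 24 amacrine and horizontal cell genes were called, with a median of −0.16. Of 27 ganglion cell genes 1, Isl1, was called lower (3.7%, against 2.73% of all genes). Calb2, a calcium-binding protein of amacrine and ganglion cells, read 10.46 and 12.27 at P21 and 9.44 and 9.16 at P28 and was not called (−2.06, adjusted p = 0.0917). The amacrine list had a median of 0.20 against P21 array 1 and −0.50 against P21 array 2, so its sign depended on the P21 array.

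Genes of oxidative phosphorylation, the mitochondrial respiratory chain, gave 12 falls of moderate size. Of 43 measured members 12 (27.9%, against 2.73% of all genes) were called lower and 1, Ndufa2, higher. Of the differences 38 were below 0, with a median of −0.79. Uqcrb, a subunit of complex III, read 13.13 and 12.63 at P21 and 11.44 and 11.43 at P28 and fell by 1.45 (SE 0.24, adjusted p = 0.00585). Ndufv1, a core subunit of complex I, read 14.61 and 14.17 at P21 and 13.14 and 13.20 at P28 and fell by 1.22 (SE 0.24, adjusted p = 0.0138). Cycs, cytochrome c, fell by 1.28 (adjusted p = 0.0188), and Cox5b, a subunit of complex IV, fell by 1.13 on its brightest probe (adjusted p = 0.0124) but differed by 1.1 on another. Without P21 array 1 the median was −0.64 and without P21 array 2 it was −0.83. Fewer members were called without array 1 than without array 2, as was the case over all genes. With cyclic loess, as with the authors' processed values, 5 were called lower and 1 higher. Lower calls over all genes were 90 and 140 in these settings, against 344 in the reported fit.

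Genes of glycolysis gave 3 called falls, and genes of the ribosome gave 3 called falls and 1 called rise. Of 28 glycolysis and lactate genes 3 (10.7%, against 2.73% of all genes) were called lower and 0 higher, with a median of −0.23. These were Pkm, pyruvate kinase, which fell by 1.77 (adjusted p = 0.0258), Pgam1, phosphoglycerate mutase, which fell by 2.18 (adjusted p = 0.0293), and Eno2, the neuronal enolase, which fell by 2.41 (adjusted p = 0.0418). With cyclic loess 0 were called, and over all genes 90 were called lower, against 344 in the reported fit. Of 65 ribosomal protein genes 3 (4.62%) were called lower (Rpl17, Rplp2 and Rps3) and 1 (1.54%) higher (Rpl7, 1.79, adjusted p = 0.0204). The shares of all genes were 2.73% lower and 1.89% higher, so the ribosomal counts lay near them. The ribosomal median was −0.26. Without P21 array 1 the differences of Pkm, Pgam1 and Eno2 were −1.12, −1.90 and −2.59. The calls of both lists were lost in that setting, as were most of the 582 calls over all genes.

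**Figure D3:**
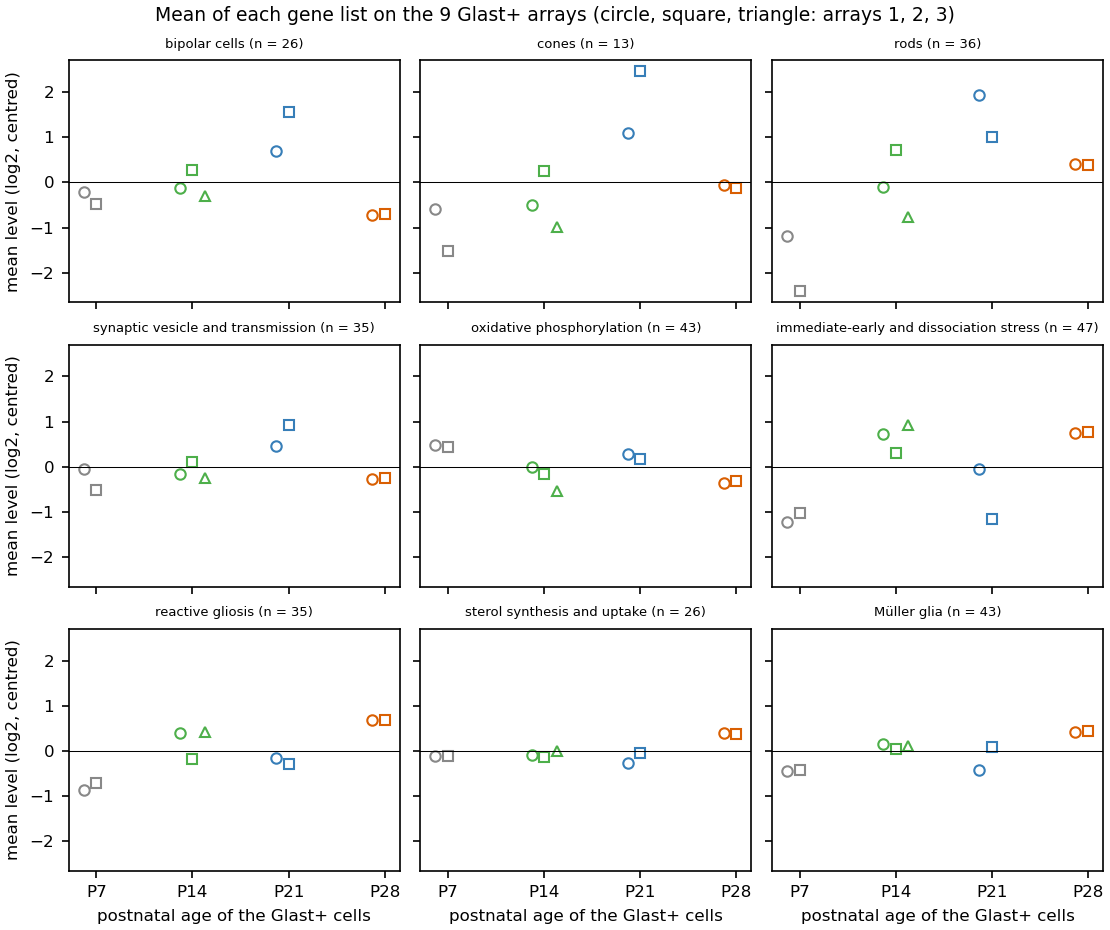
Mean level of 9 gene lists on each of the 9 Glast+ arrays (y axis, log2 units centred per gene over these arrays) by postnatal age (x axis); circle, square and triangle are arrays 1, 2 and 3. The P28 arrays lie close together, at −0.73 and −0.70 for bipolar genes against 0.70 and 1.57 at P21, and at 0.75 and 0.76 for immediate-early genes against −0.05 and −1.17 at P21.

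Immediate-early and dissociation-stress genes, which cells switch on within minutes of stimulation or of being dissociated from tissue, were the list with the most called rises. Of 47 measured members 8 (17.0%, against 1.89% of all genes) were called higher and 0 lower, and 45 differences were above 0, with a median of 0.90. Atf3, a stress-induced transcription factor, read 13.65 and 12.83 at P21 and 15.66 and 15.55 at P28 and rose by 2.36 (SE 0.48, adjusted p = 0.0157). Zfp36, which shortens the life of cytokine messages, read 12.99 and 14.04 at P21 and 15.79 and 15.81 at P28 and rose by 2.28 (SE 0.48, adjusted p = 0.0178). Gadd45b, a stress-response gene of growth arrest, read 9.63 and 7.70 at P21 and 12.12 and 12.05 at P28 and rose by 3.42 (SE 0.70, adjusted p = 0.0167). Both P28 arrays lay above both P21 arrays in each of these genes.

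Fos and its relative Fosl1 differed. Fos, a subunit of the AP-1 factor, read 15.76 and 15.29 at P21 and 15.78 and 15.73 at P28, near the top of the scale, and was not called (0.23, adjusted p = 0.849). Fosl1, at a low level and found on 1 of the P21 arrays, read 7.11 and 6.45 at P21 and 8.10 and 8.41 at P28 and rose by 1.47 (SE 0.29, adjusted p = 0.0141). The list mean of the second P21 array was −1.17 and that of the first −0.05. Against P21 array 1 alone the median was 0.69 with 6 called, and against P21 array 2 alone it was 1.59 with 15 called. Promoters of 6 of the 8 called genes were searched. The string TGACGTCA, the cyclic AMP response element, stood in 0 of them and in 1.79% of all promoters searched.

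Markers of reactive gliosis, the injury response of Müller glia and astrocytes, gave 3 calls. Of 35 measured members 3 (8.57%, against 1.89% of all genes) were called higher and 0 lower, and 32 differences were above 0, with a median of 0.97. Edn2, an endothelin released by stressed photoreceptors, read 7.61 and 7.50 at P21 and 9.89 and 9.86 at P28 and rose by 2.32 (SE 0.33, adjusted p = 0.00292). Serping1, an inhibitor of complement, read 9.47 and 9.97 at P21 and 11.39 and 11.37 at P28 and rose by 1.66 (SE 0.42, adjusted p = 0.0356). Lcn2, a lipocalin of acute inflammation, rose from a low level by 1.30 (SE 0.32, adjusted p = 0.0309). Gfap, the intermediate filament used as the standard sign of gliosis, read 7.92 and 8.38 at P21 and 8.60 and 8.35 at P28, so its arrays overlapped and it was not called (0.33, adjusted p = 0.877). Vim, a filament protein of Müller glia, was not called either (0.13, adjusted p = 0.839). The gliosis median was 0.64 against P21 array 1 and 0.98 against P21 array 2, and it was 0.57 when a gene's probes were averaged. With cyclic loess, as with the authors' processed values, 1 member was called. Higher calls over all genes were 92 and 88 in these settings, against 238 in the reported fit.

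Heat shock and unfolded protein genes gave 3 rises among 38 members (7.89%, against 1.89% of all genes) and 0 falls, with a median of 0.37. Beside Hsp90ab1 these were Herpud1, of the endoplasmic reticulum stress response, which read 11.17 and 11.42 at P21 and 12.88 and 13.06 at P28 and rose by 1.67 (SE 0.37, adjusted p = 0.0204), and Nqo1, an antioxidant enzyme, which rose by 1.24 (adjusted p = 0.0239) on its brightest probe and differed by −0.01 on another. Of 36 interferon and MHC class I genes Irf1 was called higher (2.78%, against 1.89% of all genes). Interferon-induced genes such as Oasl2 (1.81, adjusted p = 0.11) and Rsad2 (1.78, adjusted p = 0.126) were not called.

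Sterol synthesis and uptake, by which glia supply cholesterol, had 5 called rises and 1 called fall among 26 measured genes, with a median of 0.50. The shares were 19.2% higher and 3.85% lower, against 1.89% and 2.73% of all genes. Hmgcs1, which makes the precursor of mevalonate, read 13.86 and 13.96 at P21 and 15.41 and 15.37 at P28 and rose by 1.48 (SE 0.31, adjusted p = 0.0167). Sqle, squalene epoxidase, rose by 1.75 (adjusted p = 0.0167) and Msmo1, a sterol oxidase, by 1.62 (adjusted p = 0.015). The P21 arrays lay close to each other for these 3 genes. Hsd17b7 (0.92, adjusted p = 0.0302) also rose and Nsdhl was the fall (−1.42, adjusted p = 0.0292, with 1.27 on another probe); both were added after their values were seen. Another probe of Sqle gave 0.38. Without P21 array 1 the list median was 0.42 and fewer members were called, as was the case over all genes.

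Promoters of the called sterol genes were searched for CACCCCAC and its reverse GTGGGGTG, a form of the sterol response element bound by SREBP factors. Promoters of 3 of the 5 were searched, and 1, that of Hmgcs1, held it, against 2.87% of all promoters searched. The capitals mark the match.
Hmgcs1 promoter, chr13:119690101-119690400, plus strand: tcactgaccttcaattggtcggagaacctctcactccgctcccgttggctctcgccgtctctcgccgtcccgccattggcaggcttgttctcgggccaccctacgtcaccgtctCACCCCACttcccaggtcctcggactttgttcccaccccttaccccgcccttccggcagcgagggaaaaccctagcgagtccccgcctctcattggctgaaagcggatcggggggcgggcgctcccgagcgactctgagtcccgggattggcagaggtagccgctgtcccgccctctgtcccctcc

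The markers of Müller glia themselves gave 2 calls, both higher, among 43 measured (4.65%, against 1.89% of all genes), with a median of 0.41. Hes1, the Notch effector that keeps cells glial or undifferentiated, read 12.92 and 12.63 at P21 and 15.47 and 15.52 at P28. It rose by 2.72 (SE 0.36, adjusted p = 0.00256), and Id1, described above, was the other. Hes1 is also on the lists of the Notch pathway (31 measured) and of retinal progenitors (39 measured), where it was the called member. Hes5, its relative, read 9.43 and 9.24 at P21 and 12.78 and 12.69 at P28, a difference of 3.40 that missed the threshold (adjusted p = 0.0573). At P14 Hes1 stood at 14.50 and Hes5 at 12.76.

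The identity and homeostatic genes of Müller glia were not called. Slc1a3 differed by 0.68 (SE 0.58, adjusted p = 0.551), Glul by 0.43 (SE 0.55, adjusted p = 0.714) and Rlbp1 by 0.38 (SE 0.73, adjusted p = 0.826). Apoe, the lipid carrier of glia, differed by −0.13 (adjusted p = 0.856) and Aqp4, the water channel, by 0.27 (adjusted p = 0.831). Sox9, a factor of progenitors and Müller glia, read 14.02 and 14.33 at P21 and 15.44 and 15.38 at P28 without overlap and was not called (1.23, adjusted p = 0.159). Notch1 differed by 0.19 (adjusted p = 0.764). Of 31 genes of glial transport and volume regulation 0 were called, with a median of 0.02. The Müller median was 0.69 against P21 array 1 and 0.04 against P21 array 2, and the per-array list means, centred over the 9 Glast+ arrays, were −0.42 and 0.10 at P21 and 0.43 and 0.44 at P28. Kcnj10, the glial potassium channel, was not analysed here.

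Signalling, cell cycle and clock genes gave scattered calls. The shares called higher were 3.64% of growth factor, BMP and Wnt genes and 6.25% of DNA replication genes. They were 2.78% of mitosis genes and 9.52% of clock genes, against 1.89% of all genes. Of 55 growth factor, BMP and Wnt genes 2 were called higher, Id1 and Fzd5, a Wnt receptor, which read 8.93 and 8.85 at P21 and 10.92 and 10.99 at P28 and rose by 2.06 (SE 0.37, adjusted p = 0.00862) with 0.05 on another probe. Of 32 genes of DNA replication 2 were called higher, Mcm4 of the replicative helicase (1.48, adjusted p = 0.0095) and E2f1 (2.08, adjusted p = 0.0449), and of 36 mitosis genes 1, Anln (1.64, adjusted p = 0.0387, −0.13 on another probe). Ccnd1, the cyclin of early G1, read 13.43 and 13.65 at P21 and 14.53 and 14.40 at P28 and was not called (0.93, adjusted p = 0.141). Of 21 clock genes 2 were called higher, Clock and Tef, whose P21 arrays read 11.38 and 13.92 against 15.11 and 15.24 at P28 (2.53, adjusted p = 0.0458). The hour at which retinas were taken is not given in the labels. Without P21 array 1 the calls of E2f1 (1.78), Anln (1.41) and Tef (1.25) were lost, as were most of the 582 calls over all genes.

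Lists of non-neural cell types gave 0 to 2 calls each, to be read beside the 1.89% of all genes called higher and 2.73% called lower. Of 33 microglia and macrophage genes 1 was called higher, H2-Ab1 of MHC class II (1.58, adjusted p = 0.0273), and 1 lower, Ptprc, the leukocyte antigen CD45 (−1.34, adjusted p = 0.035, −0.14 on another probe), with a median of −0.05. Of 44 matrix genes Col18a1 was called higher (2.01, adjusted p = 0.0167, 0.38 on another probe) and Col3a1 lower (−2.64, adjusted p = 0.034, −0.10 on another probe). Of 20 pigment epithelium and choroid genes Krt18, a keratin, was called lower (−2.73, adjusted p = 0.0499). Of 31 chromatin genes Bmi1 was called lower (−1.47, adjusted p = 0.0178). Without P21 array 1 the calls of H2-Ab1 (1.26), Ptprc (−1.18), Col18a1 (1.85), Krt18 (−1.74) and Bmi1 (−1.10) were lost. So were most of the 582 calls over all genes. That of Col3a1 was lost without P21 array 2 (−1.61). No member was called among 32 endothelial, 18 pericyte, 16 astrocyte, 16 lens and ciliary body, and 11 erythroid genes. Their medians were −0.16, −0.17, 0.30, 0.12 and −0.18.

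**Figure D4:**
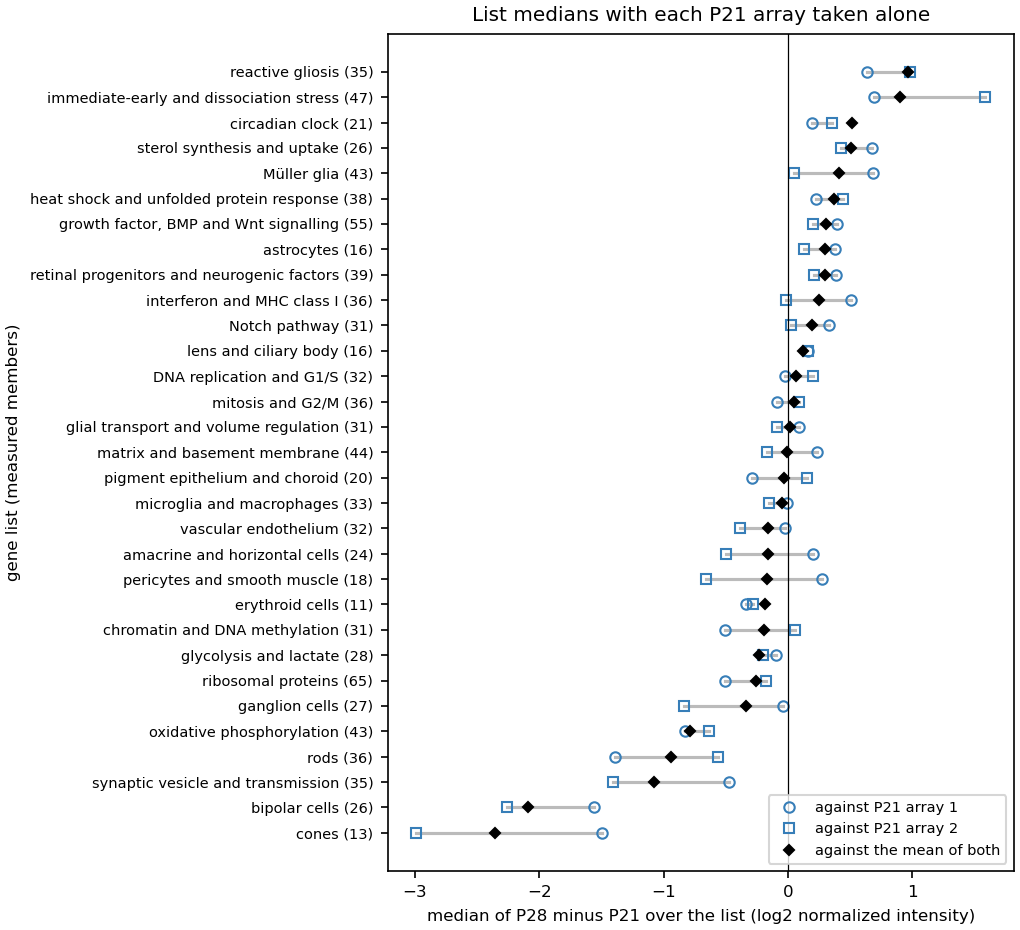
Median difference of P28 minus P21 (x axis, log2 normalized intensity) for 31 gene lists (y axis, measured members in brackets), against P21 array 1 (circle), P21 array 2 (square) and the mean of both (diamond). Bipolar, cone, rod, synaptic and oxidative phosphorylation lists lie below 0 and gliosis and immediate-early lists above 0 against either array, and the amacrine and pericyte lists lie on opposite sides of 0.

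The P21 arrays differed from each other along cell type lists, and these values stand beside the comparisons above. Per-array list means, centred over the 9 Glast+ arrays, were 1.1 and 2.46 for cones, 0.70 and 1.57 for bipolar cells, −0.06 and 0.75 for amacrine and horizontal cells and 0.26 and 1.2 for pericytes on P21 arrays 1 and 2. Rods stood at 1.94 and 0.998 and pigment epithelium at 0.69 and −0.11 on the same arrays. Array 1 therefore carried more rod and pigment epithelium signal, and array 2 more cone, inner neuron and pericyte signal and less immediate-early signal. On the P28 arrays the means were −0.07 and −0.13 for cones, −0.73 and −0.70 for bipolar cells and 0.42 and 0.40 for rods. The part of these differences in the results was not tested.

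Set beside the preceding week, the lists with the most called genes between P21 and P28 had medians of the opposite sign between P14 and P21. Bipolar genes had a median of 1.12 between P14 and P21 with 10 called higher, and −2.09 between P21 and P28. Cone genes had 2.17 with 10 called higher and then −2.35, and oxidative phosphorylation genes 0.50 with 10 called higher and then −0.79. Immediate-early genes had −1.21 with 17 called lower and then 0.90. Both differences hold the P21 arrays, with opposite signs, so they are not independent. Gng13 stood at 7.39 at P7, 9.05 ± 0.82 at P14 (SD, n = 3), 13.55 ± 0.57 at P21 (SD, n = 2) and 10.18 at P28, and Hes1 at 13.08, 14.50 ± 0.22 (SD, n = 3), 12.77 ± 0.21 (SD, n = 2) and 15.50. Over all genes the P28 arrays correlated with the P14 arrays at r = 0.950 to 0.958 and with the P21 arrays at 0.929 to 0.948.

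**Figure D5:**
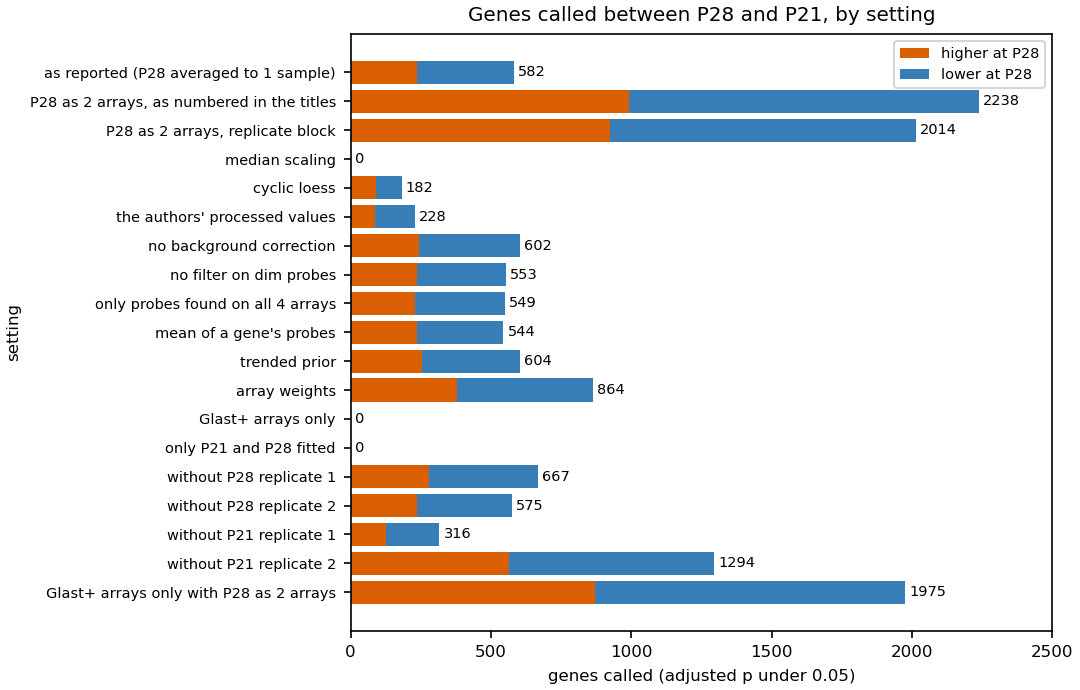
Number of genes called between P28 and P21 (x axis, adjusted p under 0.05) under each processing and test setting (y axis), split into genes higher (orange) and lower (blue) at P28. The count runs from 0 to 2238, against 582 as reported. It is 0 with median scaling or with fewer groups fitted and P28 averaged, and 2238 with P28 taken as 2 samples.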

How the data were processed

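Per the labels' protocols, cells were captured with biotin-conjugated antibodies and anti-biotin microbeads, and the RNA was amplified to biotin-labelled cRNA. Per the file headers, images with a pixel size of 5 µm (detector setting 650) were quantified in GenePix Pro 4.1.1.4. Spot and background intensity in scanner units, not normalized, were deposited. Each spot also has a flag score, set by that software per the file headers, which marks spots not found. The authors' deposited table of processed values, whose making is not given in the sources used here, is a linear signal intensity. For spots over 200 units it equalled spot minus background median times a factor per array (1.43 to 2.53 for the 4 arrays, 0 spots off by over 1%). It was used as an alternative.

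All 38880 spots entered normexp background correction (offset 50). Quantile normalization then used the 34312 transcript probes, leaving 4568 control and other spots aside, and log2 was taken. The 25264 probes found on all arrays of any group were kept. Symbols came from RefSeq GRCm38.p6, used for names only: 22987 probes had 1 symbol and 11325 none. Each gene took the value of its brightest kept probe (12612 genes). One linear model over the 8 groups was fitted with R 4.3.3 and limma 3.58.1, with the P28 pair averaged to 1 sample, 12 residual degrees of freedom and Benjamini-Hochberg adjustment at 0.05 over all genes. The number of arrays limits the precision. The labels state independent biological replicates, yet the P28 titles share a code.

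The comparison, its 31 lists and the strings searched in promoters were chosen with earlier results of these data known. Genes were named by rule: 13 chosen genes, the 12 largest changes per direction called with P28 as 1 and as 2 samples and found on every array of the higher group, and up to 4 members per list with the smallest adjusted p; exceptions are marked, and some genes that the rule names are not reported here. Same-numbered P21 and P28 arrays deviated with r = 0.0538 across genes, so numbers were not taken as pairs. Alternatives were 17 listed ones and 1 added after seeing the data. The code was tested on simulated data. Figures were drawn with matplotlib 3.10.9 and pandas 2.3.3 in Python 3.11.15, and R tables were handled with jsonlite 2.0.0 and data.table (1.17.8).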

Additional observations from a re-analysis of the deposited data

Results flagged for a closer look

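Kept transcript probes without a gene symbol were outside the comparison of genes, and 206 of 7307 of them (2.82%) were called between P28 and P21, 103 higher and 103 lower, when they were fitted and their p-values adjusted together with the 12612 genes. This is signal in data that the report's comparisons did not use, and the probes are not named here.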

How the results depend on the processing

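Against 582 genes called (238 higher, 344 lower), P28 as 2 arrays gave 2238 (993 and 1245), the same with a replicate block 2014 (923 and 1091), median scaling 0 (0 and 0), cyclic loess 182 (92 and 90), the authors' processed values 228 (88 and 140), array weights 378 higher, Glast+ arrays only 0 (0 and 0), only P21 and P28 fitted 0 (0 and 0), and Glast+ arrays only with P28 as 2 arrays, chosen after seeing the data, 1975 (872 and 1103). Leaving out 1 array at a time gave 316 to 1294 genes (128 to 566 higher, 188 to 728 lower), the extremes without P21 array 1 and P21 array 2. Of the 582, 194 were also called without P21 array 1 and 494 without P21 array 2. The settings at 0 had unadjusted p under 0.05 in 1118, 2515 and 1284 genes with limma. The fits with fewer groups and P28 averaged had 4 and 1 residual degrees of freedom, and the Glast+ arrays with P28 as 2 arrays had 5. Directions of the 582 were kept wherever measured, except 2 genes when probes were averaged. Taking P28 as 2 arrays without the block, or fitting fewer groups, leaves the group means unchanged, so directions could not change there. In all 582 the P28 and P21 arrays do not overlap. Leaving out 1 array or weighting the arrays therefore could not change a direction either. The replicate block removed 1 of the 582 calls. Otherwise the cause of a moved count was not tested.

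Between P21 and P14 (1319 genes) the count was 332 with median scaling, 824 with cyclic loess, 844 with array weights (864 between P28 and P21), 464 with Glast+ arrays only, 1554 with P28 as 2 arrays, 1193 with the replicate block and 712 to 1368 when arrays were left out. Between P14 and P7 (3202 genes) array weights gave 4920. List medians moved by more than 1 SD of the medians taken against each P21 array for 13 of 31 lists, among them bipolar cells (−1.51 with median scaling, −1.47 with cyclic loess, −2.26 to −1.56 with an array left out), reactive gliosis (0.57 with the mean of probes, 0.64 to 1.02 with an array left out), immediate-early genes (0.69 to 1.59 with an array left out) and oxidative phosphorylation (−0.97 with median scaling, −0.97 with the authors' values, −0.83 to −0.64 with an array left out), ribosomal proteins (−0.54 with median scaling, −0.53 with the authors' values), glycolysis (−0.42 with median scaling), and lens, erythroid and clock genes in 10, 6 and 5 settings. Genes that were not called changed sign with a P21 array left out, from the value without array 1 to that without array 2: Glul −0.31 to 1.17, Rlbp1 −0.33 to 1.09, Vim −0.30 to 0.55, Aqp4 −0.092 to 0.63, Notch1 −0.069 to 0.45, Ttr 0.0026 to −3.10 and Fos 0.47 to −0.0056. Vim was −0.013 with median scaling and −0.038 with the mean of probes, which also gave Fgfr3 0.032 and Bsg −0.0801. Spots near the top of the scale limit what can be seen for the brightest genes.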
